A study of Mus musculus with 20 samples.

Results

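The day-night difference in gene expression of the left ventricle was measured in mice whose cardiomyocytes lack the glucocorticoid receptor. The comparison covers 10 of the 20 libraries of the study: 5 from CardioGRKO mice at ZT12, when the lights went off, and 5 from CardioGRKO mice at ZT0, when the lights came on. Libraries were assigned by the genotype and time in their titles, and all 14007 genes that passed a filter on low counts were tested. CardioGRKO mice are GRfl/fl alphaMHCCre/+: both alleles of the receptor gene Nr3c1 are floxed, and Cre, expressed from the promoter of alpha myosin heavy chain, removes the floxed part in cardiomyocytes. The other 10 libraries come from GRflox littermates, which are GRfl/fl without Cre, at the same 2 times, 5 each. All mice were adult males of the C57BL/6 strain, about 9 to 13 weeks old, killed by cervical dislocation, and the free wall of the left ventricle was taken after perfusion of the heart with Tyrode solution. The free wall also contains endothelial cells, fibroblasts, mural cells and leukocytes, which keep the receptor in both genotypes. Since the controls carry no Cre, effects of Cre itself and of receptor loss cannot be told apart.

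The molecular clock of mammalian cells is a transcriptional feedback loop. BMAL1 (the product of Arntl) pairs with CLOCK or NPAS2 and activates genes that carry an E-box, among them the period and cryptochrome genes, whose proteins then inhibit the pair. Another loop of REV-ERB repressors and ROR activators acts on Arntl through ROR elements, and the PAR bZIP factors DBP, TEF and HLF act on D-boxes, where NFIL3 opposes them. The heart has its own clock. Glucocorticoids rise in the blood of mice before the active, dark phase and act through a receptor that binds glucocorticoid response elements, including an element near Per1, so the hormone is among the signals that can set peripheral clocks.

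The sequences through which these loops act are shown for the clock genes whose promoter windows hold an exact match. RefSeq windows on GRCm38.p6 (mm10), from 250 bases before to 50 bases after an annotated start, were found for 17 of the 20 clock genes examined (23 windows). The E-box searched was CACGTG, the same on both strands, and 5 of the 17 genes held it: Per1, Cry1, Ciart, Bhlhe41 and Tef. The D-box was searched as TTATGTAA, TTACGTAA and TTACATAA on both strands and was found in Per3, and the ROR element, searched by name with its degenerate letters on both strands, was found in Arntl. The E-box and D-box stretches below lie before the start site, and the Arntl stretch begins just after it. Each is written 5′ to 3′ on the strand of the gene, with the match in capitals.
Ciart, chr3:95882242-95882369, minus strand: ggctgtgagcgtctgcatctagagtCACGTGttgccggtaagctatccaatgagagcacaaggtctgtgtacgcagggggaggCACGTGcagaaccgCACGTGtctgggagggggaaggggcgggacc
Per1, chr11:69098758-69098813, plus strand: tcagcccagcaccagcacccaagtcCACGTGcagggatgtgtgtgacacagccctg
Tef, chr15:81811251-81811306, plus strand: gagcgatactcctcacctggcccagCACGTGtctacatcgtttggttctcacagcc
Bhlhe41, chr6:145865543-145865598, minus strand: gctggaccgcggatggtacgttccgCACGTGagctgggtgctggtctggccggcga
Cry1, chr10:85185084-85185139, minus strand: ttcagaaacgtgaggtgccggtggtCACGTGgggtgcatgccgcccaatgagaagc
Per3, chr4:151044791-151044895, minus strand: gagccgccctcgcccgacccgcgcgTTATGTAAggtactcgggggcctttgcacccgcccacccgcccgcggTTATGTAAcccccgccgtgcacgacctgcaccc
Arntl, chr7:113207528-113207556, plus strand: ggaaggcagAAAGTAGGTCAgggacggag
Ciart holds 3 E-boxes, starting 116, 58 and 44 bases before the start site, and Per3 holds 2 D-boxes, starting 205 and 158 bases before it. Of these 7 genes, Ciart, Per1, Per3, Tef and Bhlhe41 were higher at ZT12 in CardioGRKO ventricle, Arntl was lower, and Cry1 did not pass the test. An E-box lay in the windows of 11.5% of all tested genes with a window (1275 of 11083). The share was 13.88% of those called higher at ZT12 and 9.46% of those called lower. For the D-box it was 0.41% of those called higher, 0.8% of those called lower and 0.89% of those not called. The ROR element was found for 24 genes (0.22%), of which Arntl, Leo1, Hdac9 and Tor4a were called lower and none higher, against 4.75% and 4.42% of all tested genes. By class, it lay in the windows of 0.8% of the genes called lower (4 of 497) and 0.2% of those not called (20 of 10096). Hdac9 and Tor4a are named because their values had been seen. An exact glucocorticoid response element was also searched, and was found in 0 clock genes and in 1 of the 11083 genes. A match is a description of the letters, and many clock elements lie outside such short windows.

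The deposited counts held between 5854462 and 37648421 counted reads per library over the series. Within CardioGRKO the range was 5854462 to 37648421 at ZT0 (median 21895470) and 16018330 to 29617546 at ZT12 (median 25091701). The shallowest library, CardioGRKO ZT0 replicate 1, also carries another run label than the remaining 19, so depth and whatever that label marks cannot be told apart for it. In a principal component analysis of the 10 CardioGRKO libraries the main component held 26.6% of the variance and separated the times, with ZT0 between −30.86 and −3.30 and ZT12 between 12.16 and 18.59. ZT0 replicate 2 lay nearest to ZT12 on this axis, and the same library had 71.2 CPM of the inducible heat shock gene Hspa1b against 0.885 to 6.92 CPM in the other 4 ZT0 libraries, a gene picked after its values were seen. The targeted gene Nr3c1 stood at 51.9, 53.8, 54.5, 54.4 and 61.1 CPM (read counts scaled to library size and TMM factor) at ZT0 and at 51.9, 48.6, 51.8, 46.7 and 55.9 CPM at ZT12. These ranges overlapped, the log2 fold change was −0.12 ± 0.0592 (SE, adjusted p = 0.255), and all 10 libraries lay below the 95.3 to 122 CPM of the GRflox libraries. Whether the replicates are separate animals is not stated for each library, so the p-values measure the spread between these libraries.

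At ZT12 the CardioGRKO ventricle had less Arntl, Clock and Npas2 and more period, Ciart and PAR bZIP transcripts than at ZT0, and the largest fall of all named genes was in the matrix gene Spon2. Of 14007 genes, 1284 (9.17%) passed an adjusted p of 0.05 in edgeR's quasi-likelihood test: 619 were higher (4.42%) and 665 lower (4.75%) at ZT12. Most changes were small: 995 of the 1284 (77.5%) were under 1.5-fold, while 56 genes rose and 57 fell by at least 2-fold (0.807% of all tested genes together). Without CardioGRKO ZT0 replicate 3 the counts were 383 higher and 491 lower, and with every library thinned to the lowest total, a check added after the totals were seen, 346 higher and 406 lower. Counts of alternative analyses given for single genes below, 28 for the ZT12 to ZT0 change and 27 for the interaction, leave the thinning out. In 795 of the 1284 genes the 5 ZT12 libraries did not overlap with the 5 ZT0 libraries, against 996 (7.11%) of all tested genes.

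**Figure D1:**
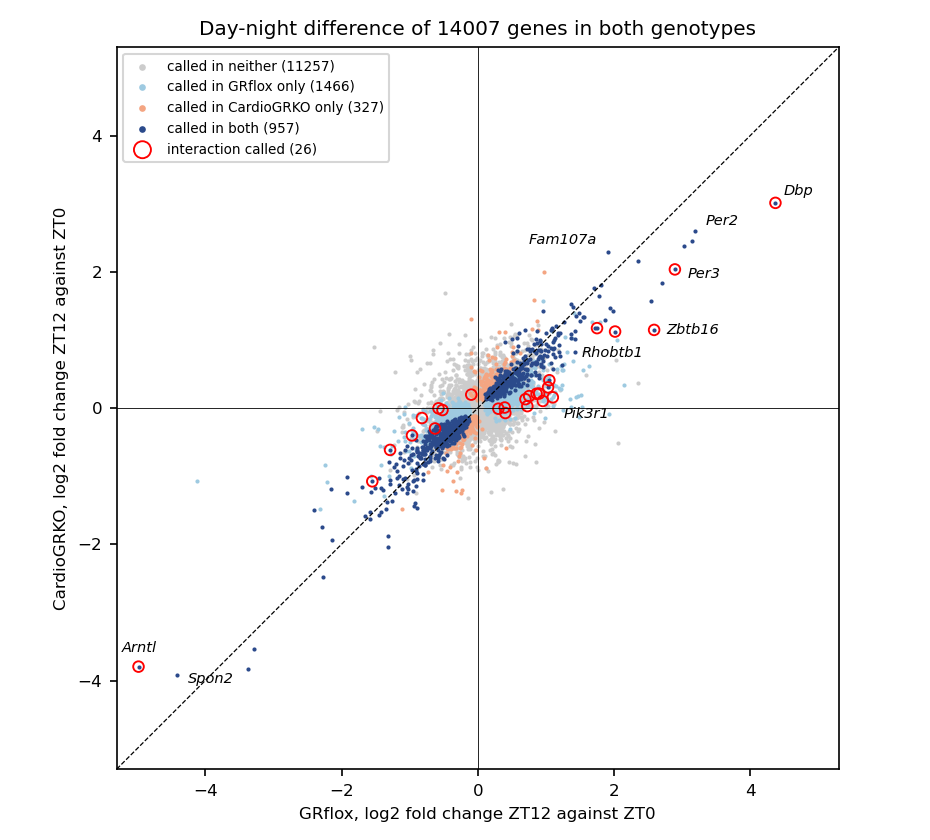
Log2 fold change from ZT0 to ZT12 of each of the 14007 tested genes in CardioGRKO (vertical axis) against GRflox (horizontal axis), coloured by the genotypes in which the gene was called and ringed in red where the genotype-by-time interaction was called. The 957 genes called in both lie in the same quadrants, and the dashed line marks equal change. The ringed genes have the smaller absolute change in CardioGRKO, apart from 1 gene close to the centre.

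The 3 activators of the clock all fell from ZT0 to ZT12 in CardioGRKO, against 4.75% of all tested genes. Arntl (chr7:113178471-113314126), which encodes BMAL1, stood at 30.3, 29.5, 40.7, 43.5 and 42.6 CPM at ZT0 and at 3.32, 1.68, 3.18, 3.14 and 1.70 CPM at ZT12. Every ZT12 library lay below every ZT0 library, a 13.9-fold difference (log2 fold change −3.80 ± 0.15, adjusted p = 2.75e-14). Clock, its partner, stood at 86.3, 83.0, 92.1, 91.3 and 106 CPM at ZT0 and at 51.6, 45.7, 50, 50.1 and 42.7 CPM at ZT12. This fall was 1.90-fold, again without overlap (log2 fold change −0.93 ± 0.058, adjusted p = 7.63e-11). Npas2, which can take the place of CLOCK, ran from 14.5 to 25.6 CPM at ZT0 and from 4.29 to 8.30 CPM at ZT12. Its fall was 2.81-fold (log2 fold change −1.49 ± 0.17, adjusted p = 2.02e-06). Of these 3, Arntl differed between genotypes in the interaction test, with a log2 fold change of −4.98 in GRflox and a difference of 1.18 ± 0.24 (adjusted p = 0.0397), a call lost in 13 of 27 alternative analyses (adjusted p up to 0.231).

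Of the 6 period and cryptochrome genes, which encode repressors of BMAL1 and CLOCK and the related repressor CIART, 5 rose. The share that rose over all tested genes was 4.42%. Per2 (chr1:91415977-91459351) stood at 9.88, 20.9, 10.3, 8.61 and 6.28 CPM at ZT0 and at 73.6, 74.4, 62.1, 76.4 and 75.3 CPM at ZT12. Even the high ZT0 replicate 2 lay well below the ZT12 libraries, and the rise was 6.04-fold (log2 fold change 2.59 ± 0.24, adjusted p = 4.85e-08). Per3 rose 4.10-fold, from 12.0 to 18.6 CPM at ZT0 to 54.8 to 77.0 CPM at ZT12 (adjusted p = 7.53e-12). Per1, which is induced both by the clock and by glucocorticoids, stood at 29.0, 51.0, 60, 25.4 and 59.9 CPM at ZT0 and at 117, 111, 81.3, 121 and 122 CPM at ZT12. The groups did not overlap, although ZT0 values of Per1 were spread over more than those of Per3, and the rise was 2.43-fold (log2 fold change 1.28 ± 0.28, adjusted p = 0.00346). In GRflox the Per1 change was 1.5 on the log2 scale, and the difference of −0.22 did not pass the interaction test (adjusted p = 0.981). Ciart, the gene with 3 E-boxes above, rose 5.47-fold from 0.768 to 1.95 CPM to 5.45 to 8.33 CPM (adjusted p = 1.1e-08). Cry2 rose 1.68-fold (37.7 to 45.0 against 59.3 to 76.1 CPM, adjusted p = 1.11e-07). Cry1, which also has an E-box at this distance, had 12.7 to 18.1 CPM at ZT0 and 12.3 to 16.3 CPM at ZT12, with a log2 fold change of −0.21 ± 0.0962 (adjusted p = 0.182).

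**Figure D2:**
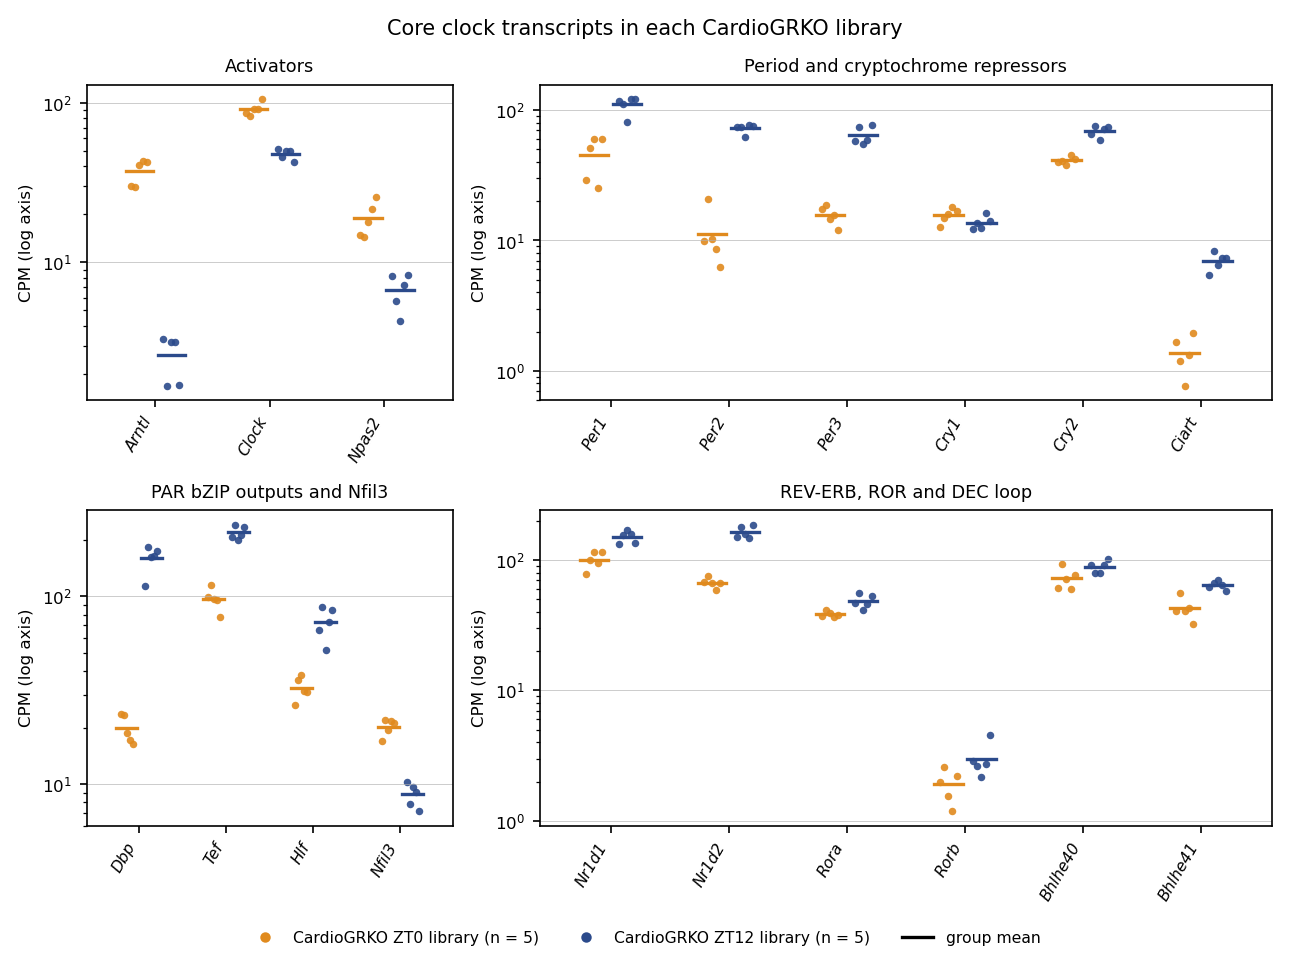
Expression of 19 clock genes in TMM-scaled CPM (log axis) in each of the 5 CardioGRKO ZT0 libraries (orange) and 5 CardioGRKO ZT12 libraries (blue), with a bar at each group mean. The points of the 2 times are apart for 15 of the 19 genes and overlap for Cry1, Rora, Rorb and Bhlhe40.

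In the second loop, 4 of 7 genes rose and none fell, against 4.42% and 4.75% of all tested genes. Nr1d2, which encodes the repressor REV-ERB beta, stood at 67.5, 76.0, 66.7, 58.6 and 66.4 CPM at ZT0 and at 149, 180, 159, 147 and 187 CPM at ZT12. This rise was 2.45-fold without overlap (log2 fold change 1.29 ± 0.0918, adjusted p = 7.61e-10). Nr1d1, which encodes REV-ERB alpha, rose 1.49-fold, from 78.4 to 116 CPM to 133 to 171 CPM (adjusted p = 0.00246). Bhlhe41, which encodes the E-box repressor DEC2, also rose 1.49-fold, from 32.6 to 55.6 CPM to 58.1 to 70.2 CPM (adjusted p = 0.000196). Rora, an activator of Arntl, rose 1.25-fold with overlapping groups (adjusted p = 0.00455). Bhlhe40 and Rorb did not pass, with log2 fold changes of 0.27 (adjusted p = 0.173, and 0.0425 without CardioGRKO ZT0 replicate 2) and 0.65 (adjusted p = 0.164). In GRflox, Bhlhe40 rose by 0.63 on the log2 scale and passed, but its difference from CardioGRKO did not pass the interaction test (adjusted p = 0.83).

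The PAR bZIP genes are direct outputs of the E-box loop, and all 3 rose, while their antagonist Nfil3 fell. Over all tested genes 4.42% rose and 4.75% fell. Dbp (chr7:45705100-45710203) stood at 23.7, 23.4, 18.7, 17.2 and 16.3 CPM at ZT0 and at 113, 184, 162, 164 and 174 CPM at ZT12. The rise was 8.07-fold, the largest among the named genes (log2 fold change 3.01 ± 0.12, adjusted p = 2.28e-14). Tef stood at 99.1, 115, 96.4, 95.7 and 77.3 CPM at ZT0 and at 208, 241, 199, 213 and 234 CPM at ZT12, a 2.26-fold rise (adjusted p = 1.24e-10). Hlf rose 2.19-fold, from 26.3 to 38.3 CPM to 51.8 to 87.3 CPM (adjusted p = 5.74e-07). Nfil3 fell 2.30-fold, from 17.0 to 21.9 CPM to 7.15 to 10.3 CPM (adjusted p = 3.21e-06).

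In all, 16 of the 20 clock genes changed with time in CardioGRKO, 12 higher and 4 lower, against 9.17% of all tested genes. The times did not overlap for 15 of the 20, against 7.11% of all tested genes. In GRflox 17 of the 20 changed, against 17.3% of all tested genes. The interaction was called for 4 of the 20, against 0.186% of all tested genes. Each of these 4 had the smaller change in CardioGRKO. With only 2 times sampled, a weaker rhythm and a shifted peak cannot be told apart. A gene that peaks between the 2 times can also be missed. Dbp rose by 3.01 on the log2 scale in CardioGRKO and by 4.37 in GRflox, a difference of −1.36 (adjusted p = 0.000332). Per3 rose by 2.03 against 2.89 (difference −0.86, adjusted p = 0.0137), and Tef by 1.17 against 1.75 (difference −0.58, adjusted p = 0.0129). Arntl, given above, is the fourth. At ZT0, mean CPM in CardioGRKO against GRflox was 19.9 against 9.6 for Dbp and 15.7 against 8.58 for Per3. For Tef it was 96.7 against 83.6, and for Arntl 37.3 against 57.6. At ZT12 it was 159 against 198 for Dbp and 64.8 against 63.3 for Per3. For Tef it was then 219 against 281, and for Arntl 2.6 against 1.78. These differences between genotypes at a single time were not tested. For Nr1d2 the difference was −0.57 (adjusted p = 0.0657), and for Npas2 it was 0.90 (adjusted p = 0.25).

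Of 17 genes whose products modify clock proteins 2 rose and 1 fell, against 4.42% and 4.75% of all tested genes. Their median log2 fold change was 0.095, against 0.002 over all tested genes. Usp2, a deubiquitinase that acts on clock proteins, rose 1.68-fold, from 119 to 157 CPM to 215 to 252 CPM (adjusted p = 3.2e-07). Cipc, an inhibitor of CLOCK, rose 1.25-fold from 53.3 to 60.7 CPM to 67.1 to 73.4 CPM (adjusted p = 0.000516). Fbxw11, a ubiquitin ligase subunit, fell 1.13-fold with overlapping groups (adjusted p = 0.0235), and this call was lost in 3 of 28 alternative analyses: in the CardioGRKO libraries alone and without CardioGRKO ZT0 replicate 3 or ZT12 replicate 1 (adjusted p up to 0.0724).

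Among 22 genes listed as rhythmic outputs, including the muscle gene Tcap, 10 rose and 4 fell, against 4.42% and 4.75% of all tested genes. The list was chosen with earlier results of these data known, so its counts are not independent of them. The median log2 fold change of the 22 was 0.271. Tspan4, a tetraspanin, rose 2.39-fold from 7.37 to 8.58 CPM to 17.6 to 20.4 CPM (adjusted p = 5.02e-11). Tcap encodes telethonin of the sarcomeric Z-disc and stood at 683, 641, 558, 533 and 572 CPM at ZT0 and at 1037, 1621, 1228, 1351 and 1501 CPM at ZT12. All ZT12 libraries exceeded all ZT0 libraries, and the rise was 2.26-fold (adjusted p = 5.21e-09). Mthfd1l, a mitochondrial folate enzyme, rose 4.48-fold from 0.452 to 1.15 CPM to 2.84 to 5.27 CPM (adjusted p = 4.58e-07). Dtx4, a ubiquitin ligase of the deltex family, fell 2.27-fold from 14.9 to 19.3 CPM to 6.68 to 8.67 CPM (adjusted p = 4.08e-08). Leo1, a subunit of the PAF1 transcription elongation complex and 1 of the 24 genes with a ROR element in its window, fell 2.11-fold from 30.7 to 37.0 CPM to 14.9 to 19.5 CPM (adjusted p = 1.44e-10). Rhobtb1 rose 2.18-fold from 101 to 175 CPM to 230 to 348 CPM (adjusted p = 8.65e-07).

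Outside the clock lists, the named rises included Fam107a, Adh1, Fkbp5, Mt2, Slc4a8, Ppl, Angptl7 and Cys1. Genes were eligible as largest rises or falls only where the 2 times did not overlap, so non-overlap is no separate result for them. Fam107a, an actin-binding stress-response gene, stood at 3.62, 4.77, 5.51, 2.24 and 4.51 CPM at ZT0 and at 20.9, 16.5, 13.0, 25.1 and 25.3 CPM at ZT12. It rose 4.88-fold (log2 fold change 2.29 ± 0.32, adjusted p = 3.41e-05). Adh1, an alcohol and retinol dehydrogenase, rose 3.50-fold, from 6.30 to 10.6 CPM to 19.7 to 38.5 CPM (adjusted p = 6.45e-07). In GRflox its log2 fold change was 1.81, the same to 2 decimals as in CardioGRKO. Slc4a8, a bicarbonate transporter, rose 2.89-fold, Ppl, which encodes the desmosomal protein periplakin, 2.81-fold, and Cys1, which encodes cystin of the primary cilium, 2.68-fold. The secreted angiopoietin-like gene Angptl7 rose 2.78-fold, from 3.79 to 6.73 CPM to 8.74 to 24.0 CPM (adjusted p = 0.00154). None of these 6 differed from GRflox in the interaction test (adjusted p = 0.392 to 1).

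The largest fall among the named genes was that of Spon2, which encodes the secreted matrix protein spondin 2. Spon2 (chr5:33213518-33218254) stood at 15, 10.4, 16.0, 17.8 and 10 CPM at ZT0 and at 0.594, 1.05, 1.07, 0.869 and 1.09 CPM at ZT12. This was a 15.1-fold fall (log2 fold change −3.92 ± 0.19, adjusted p = 1.26e-12). In GRflox Spon2 fell by 4.41 on the log2 scale, and the difference did not pass the interaction test (adjusted p = 0.914). Col5a3, a collagen V chain, stood at 83.5, 67.9, 94.0, 78.8 and 75.0 CPM at ZT0 and at 21.1, 22.3, 20.4, 18.0 and 22.8 CPM at ZT12, a 3.82-fold fall (adjusted p = 1.26e-12). Slc41a3, a magnesium transporter, fell 3.35-fold from 38.2 to 77.1 CPM to 15.1 to 20 CPM (adjusted p = 4.39e-09). Transcription factor genes were also among them. Foxs1 fell 3.01-fold (adjusted p = 5.12e-07), Creb3l1, whose product activates collagen genes, fell 2.59-fold (adjusted p = 5.02e-11), and Prdm1 fell 2.38-fold (adjusted p = 0.00104). Cx3cr1, the fractalkine receptor of myeloid cells, fell 2.78-fold from 4.64 to 9.70 CPM to 1.33 to 4.48 CPM (adjusted p = 0.000518). Rcan1, a feedback inhibitor of calcineurin, stood at 224, 317, 221, 215 and 201 CPM at ZT0 and at 115, 67.9, 117, 108 and 87.1 CPM at ZT12, a 2.38-fold fall (adjusted p = 5.12e-07). ZT0 replicate 2 was the highest library for Rcan1, and the other 4 ZT0 libraries still lay above all ZT12 libraries.

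Of 32 genes known to be induced by glucocorticoids in several tissues, 11 rose and 2 fell in CardioGRKO. Of the 11, Per1 is also counted among the period genes above, and Tsc22d3 and Klf9 among the rhythmic outputs. The shares over all tested genes were 4.42% and 4.75%. In GRflox 20 rose and 2 fell, against 8.13% and 9.17% of all tested genes. The median log2 fold change of the list was 0.215 in CardioGRKO and 0.607 in GRflox. Fkbp5, a co-chaperone that restrains the receptor, stood at 9.22, 11.1, 7.82, 5 and 6.10 CPM at ZT0 and at 25.8, 22.6, 19.2, 35.0 and 31.1 CPM at ZT12. The groups were apart and the rise was 3.40-fold (log2 fold change 1.76 ± 0.26, adjusted p = 7.77e-05), with 1.70 in GRflox and a difference of 0.0631 (adjusted p = 0.997). Map3k6, a stress kinase, rose 2.55-fold from 7.79 to 14.1 CPM to 24.0 to 33.5 CPM (adjusted p = 7.51e-05), and Sult1a1, a sulfotransferase, rose 1.78-fold from 15.9 to 23.1 CPM to 26.3 to 40.7 CPM (adjusted p = 9.57e-05). For both, GRflox changed by a like amount (1.44 and 0.77 on the log2 scale) and the interaction was not called (adjusted p = 0.99 and 0.989).

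For Zbtb16, Glul and Foxo3 of this list the change was smaller in CardioGRKO by the interaction test, and Foxo3 is described further below. Zbtb16 (chr9:48651797-48836225), which encodes the transcription factor PLZF, stood at 40.8, 49.0, 41.9, 42.2 and 37.7 CPM at ZT0 and at 98.9, 91.3, 51.2, 116 and 115 CPM at ZT12. ZT12 replicate 3 lay only just above the ZT0 libraries, and the rise was 2.21-fold (log2 fold change 1.15 ± 0.17, adjusted p = 7.02e-05). In GRflox Zbtb16 rose by 2.59 on the log2 scale, and the difference of −1.44 ± 0.24 passed the interaction test (adjusted p = 0.00533). Glul, which encodes glutamine synthetase, rose 1.33-fold from 559 to 734 CPM to 793 to 927 CPM (adjusted p = 0.00101), by 0.41 against 1.05 on the log2 scale in GRflox (difference −0.64, adjusted p = 0.00608). The metallothionein gene Mt2 rose 2.98-fold from 1.24 to 1.98 CPM to 2.41 to 7.59 CPM (adjusted p = 0.0305), a call lost in 6 of 28 alternative analyses (adjusted p up to 0.177). Its difference from GRflox was −0.97 and did not pass the interaction test (adjusted p = 0.906). The cell cycle inhibitor Cdkn1a, which is also on the list, fell 2.03-fold from 50.5 to 84.8 CPM to 19.6 to 45.8 CPM (adjusted p = 0.0114), with a difference from GRflox of 0.43 that did not pass (adjusted p = 0.933).

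**Figure D3:**
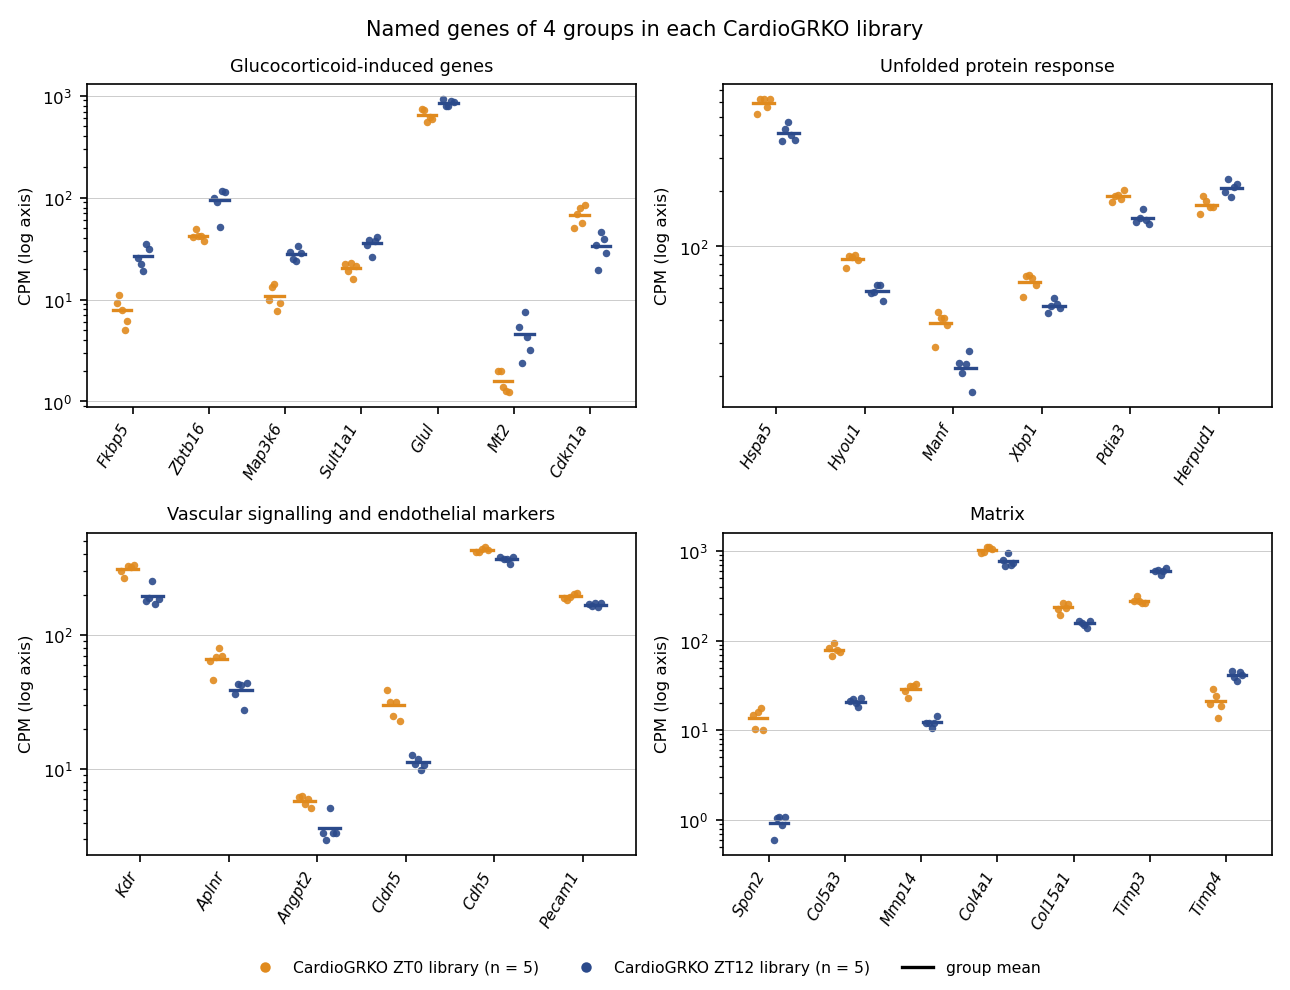
Expression in TMM-scaled CPM (log axis) of named genes from 4 groups in each CardioGRKO ZT0 library (orange) and ZT12 library (blue), with a bar at each group mean. Glucocorticoid-induced genes other than Cdkn1a and the inhibitors Timp3 and Timp4 lie higher at ZT12, and the unfolded protein, vascular and remaining matrix genes lie lower, apart from Herpud1.

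Genes of the unfolded protein response, by which the endoplasmic reticulum raises its folding capacity, were mostly lower at ZT12. Of 24 members of a list for the unfolded protein and integrated stress responses, 13 fell and 1 rose, and in GRflox 13 fell and 2 rose. Over all tested genes, 4.75% fell and 4.42% rose in CardioGRKO, and 9.17% fell and 8.13% rose in GRflox. The median log2 fold change of the list was −0.275 (−0.349 in GRflox). Hspa5, which encodes the chaperone BiP, stood at 521, 623, 624, 564 and 624 CPM at ZT0 and at 369, 430, 468, 398 and 375 CPM at ZT12. It fell 1.45-fold without overlap (log2 fold change −0.54 ± 0.0925, adjusted p = 0.000415). Hyou1, a partner chaperone, fell 1.49-fold from 76.2 to 89.9 CPM to 51.1 to 61.8 CPM (adjusted p = 4.68e-05). Manf, a secreted stress-induced factor, fell 1.75-fold from 28.8 to 44.2 CPM to 16.4 to 27.4 CPM (adjusted p = 0.000435). Xbp1, a transcription factor of the response, fell 1.36-fold (adjusted p = 0.000608), and Pdia3, a disulfide isomerase, fell 1.31-fold (adjusted p = 0.00183), both without overlap. Without CardioGRKO ZT0 replicate 2, the library with high Hspa1b, 7 members fell. The exception was Herpud1, of the machinery that degrades misfolded proteins, which rose 1.23-fold with overlapping groups (150 to 187 against 186 to 230 CPM, adjusted p = 0.0154, and 0.0541 without CardioGRKO ZT12 replicate 2). In GRflox Herpud1 rose by 1.03 on the log2 scale, and the difference of −0.73 passed the interaction test (adjusted p = 0.00232).

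Several vascular growth factor genes and receptors were lower at ZT12. Of 16 genes for VEGF and vascular signalling 6 fell and 1 rose, against 4.75% and 4.42% of all tested genes. The median log2 fold change of the 16 was −0.228 (−0.231 in GRflox). After thinning 3 of the 16 fell, and the 1 rise, of Flt1, did not pass after thinning or without CardioGRKO ZT0 replicate 4. Kdr, the main VEGF receptor of endothelial cells, stood at 302, 269, 326, 325 and 332 CPM at ZT0 and at 179, 189, 252, 170 and 185 CPM at ZT12. ZT12 replicate 3 was the highest of its group and lay below the ZT0 libraries, and the fall was 1.59-fold (log2 fold change −0.67 ± 0.0988, adjusted p = 6.29e-05). Aplnr, the apelin receptor, fell 1.70-fold from 46.6 to 79.9 CPM to 27.8 to 44.2 CPM (adjusted p = 0.00457), and Angpt2, a ligand of the TIE2 receptor, fell 1.61-fold from 5.13 to 6.32 CPM to 2.96 to 5.13 CPM (adjusted p = 0.00617).

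Endothelial markers were also called, and Kdr and Tek are members of both lists. Of 10 markers 5 fell and 1 rose, against 4.75% and 4.42% of all tested genes. The falls were Pecam1, Cdh5, Kdr, Tek and Cldn5, the rise was Fabp4, and the other markers were not called. The summed level of the 10 was 1618 to 1739 CPM at ZT0 and 1348 to 1629 CPM at ZT12. The defining markers Cdh5 (VE-cadherin) and Pecam1 fell 1.17-fold (414 to 452 against 341 to 383 CPM, adjusted p = 0.00105) and 1.15-fold (184 to 205 against 161 to 174 CPM, adjusted p = 0.0015). Cldn5, which encodes the tight junction protein of endothelial cells, fell further, 2.64-fold, from 39.0, 32.0, 25, 31.6 and 22.9 CPM to 12.8, 11, 12.0, 9.86 and 10.7 CPM (adjusted p = 3.59e-07). In bulk tissue, fewer cells of a type and less RNA per cell cannot be told apart. The part of endothelial content in the vascular genes was not tested.

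Matrix genes moved in both directions: of 31 in the list 5 fell and 4 rose, against 4.75% and 4.42% of all tested genes. The median log2 fold change of the list was −0.01. Without CardioGRKO ZT0 replicate 3, 2 rose. Mmp14, a membrane-bound collagenase, fell 2.38-fold from 23.0 to 32.6 CPM to 10.5 to 14.4 CPM (adjusted p = 1.15e-08). The basement membrane genes Col15a1 and Col4a1 fell 1.51-fold and 1.34-fold, the latter with overlapping groups (adjusted p = 0.00106 and 0.000809). Timp3, an inhibitor of metalloproteinases, stood at 280, 314, 280, 264 and 265 CPM at ZT0 and at 603, 613, 540, 607 and 658 CPM at ZT12, a 2.15-fold rise (adjusted p = 5.02e-11). Timp4, the related inhibitor, rose 1.94-fold from 13.9 to 29.1 CPM to 35.9 to 45.7 CPM (adjusted p = 0.000185). No fibroblast marker of 8 passed in edgeR, DESeq2 or limma-voom, or at an unadjusted p of 0.05, and the summed fibroblast level was 2205 to 2415 CPM at ZT0 and 2069 to 2602 CPM at ZT12.

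**Figure D4:**
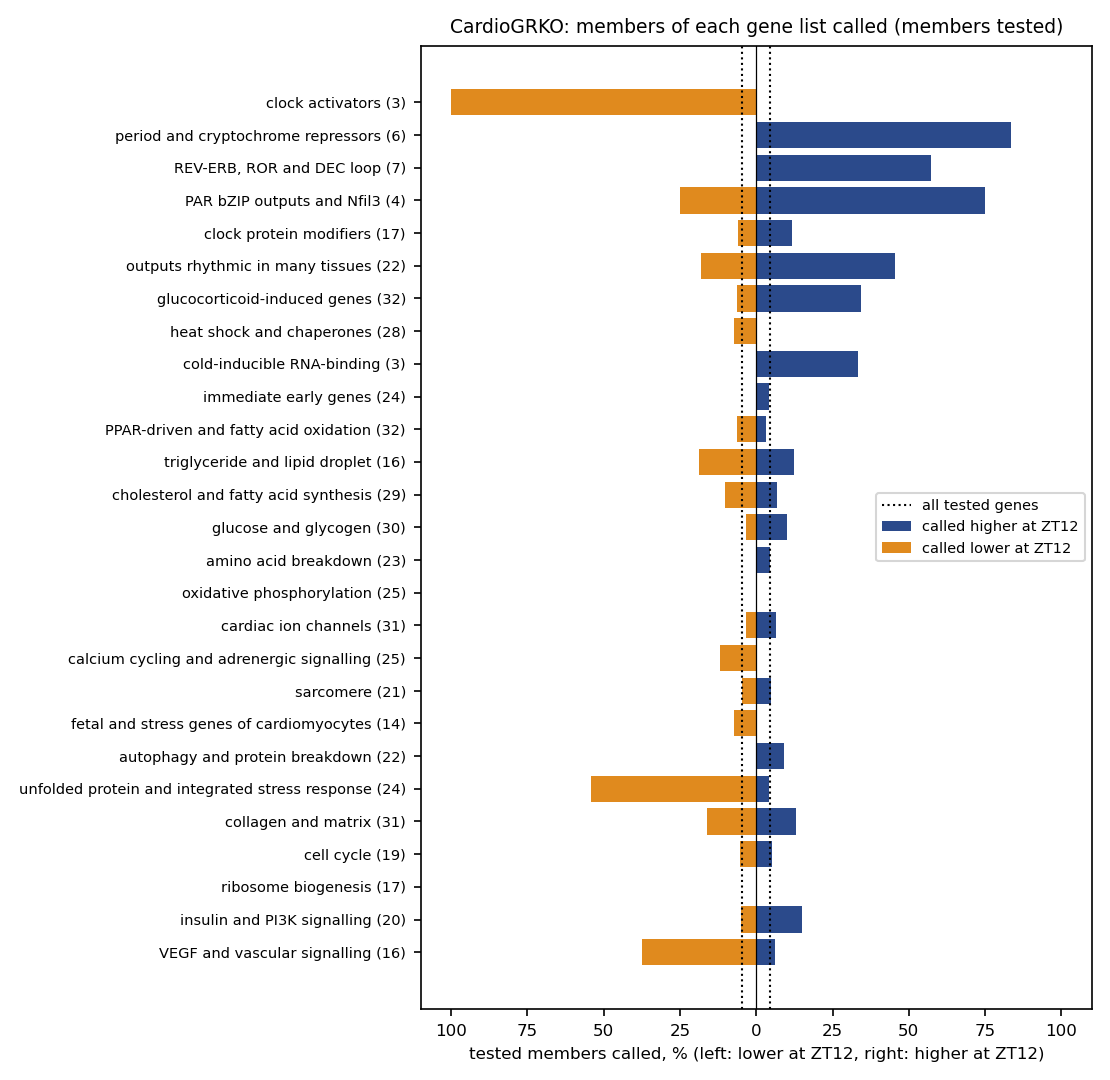
Share of tested members of each of 27 gene lists called higher (blue, to the right) or lower (orange, to the left) at ZT12 in CardioGRKO, in percent, with the number of tested members in brackets. Dotted lines mark the shares over all 14007 genes, 4.42% higher and 4.75% lower, and oxidative phosphorylation and ribosome biogenesis have no bar.

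The lists for energy metabolism differed in how many genes were called, where 4.42% of all tested genes were higher and 4.75% lower. Of 32 genes of the PPAR programme and fatty acid oxidation, the main fuel pathway of the heart, 1 rose and 2 fell. Ucp2, a mitochondrial carrier, rose 1.41-fold (adjusted p = 0.00138), the fatty acid transporter gene Cd36 fell 1.13-fold (1276 to 1458 against 1178 to 1219 CPM, adjusted p = 0.0263, and 0.0547 without CardioGRKO ZT0 replicate 2), and the lipid droplet gene Plin5 fell 1.19-fold (adjusted p = 0.027, and up to 0.0725 where CardioGRKO ZT0 replicate 3 or 5 or ZT12 replicate 1 or 5 was left out). No gene of 25 for oxidative phosphorylation passed in edgeR, DESeq2 or limma-voom, and 2 had an unadjusted p under 0.05. The ATP synthase subunit gene Atp5a1, for example, had 4731 to 4977 CPM at ZT0 and 4338 to 4916 CPM at ZT12, with a log2 fold change of −0.0879 ± 0.037 (adjusted p = 0.152, and 0.0268 without CardioGRKO ZT12 replicate 2). In triglyceride metabolism 2 of 16 rose and 3 fell. Gpam, the first committed enzyme of glycerolipid synthesis, rose 1.46-fold from 222 to 333 CPM to 361 to 419 CPM (adjusted p = 0.000742), and Dgat2, the last, rose 1.28-fold (adjusted p = 0.00702). Lpin1, which encodes a phosphatidate phosphatase, fell 1.25-fold from 240 to 309 CPM to 200 to 236 CPM (adjusted p = 0.00216), and Pnpla3, a lipid hydrolase gene, fell 1.99-fold from 2.07 to 4.60 CPM to 0.979 to 1.90 CPM (adjusted p = 0.0046).

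In cholesterol and fatty acid synthesis 2 of 29 rose and 3 fell. Fasn, fatty acid synthase, rose 1.27-fold without overlap (adjusted p = 0.00773). In glucose and glycogen metabolism 3 of 30 rose and 1 fell. The glucose transporter gene Slc2a1 rose 1.35-fold (adjusted p = 0.00426) and Pfkfb3, an enzyme that makes the activator of phosphofructokinase, rose 1.5-fold from 5.93 to 9.31 CPM to 11.4 to 13.3 CPM (adjusted p = 0.00856). Hexokinase gene Hk1 fell 1.15-fold (adjusted p = 0.0396), a call lost in 9 of 28 alternative analyses (adjusted p up to 0.103). DESeq2 called 6 cholesterol genes lower. In the list for amino acid breakdown 1 of 23 rose. This was Glul, whose product makes glutamine, and no other member was called. Without CardioGRKO ZT12 replicate 2 another 3 were lower. Over all tested genes the shares were 4.42% higher and 4.75% lower.

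In the lists for excitation and contraction 1 to 3 genes each were called. These lists were not tested against the shares over all tested genes, 4.42% higher and 4.75% lower. Of 31 ion channel genes 2 rose and 1 fell. Kcnh2, the channel of the rapid delayed rectifier current, rose 1.32-fold from 98.0 to 108 CPM to 120 to 157 CPM (adjusted p = 0.000574). The potassium channel gene Kcnk3 fell 1.17-fold with overlapping groups (adjusted p = 0.0255), and did not pass without CardioGRKO ZT0 replicate 3 or 4 or ZT12 replicate 5 (adjusted p up to 0.0758). Without ZT0 replicate 4, 1 channel gene rose. The channel genes called lower numbered 0 without CardioGRKO ZT0 replicate 3 and 3 without ZT12 replicate 4. Of 25 genes for calcium cycling and adrenergic signalling 3 fell and none rose. Among them the adrenergic receptor gene Adra1b fell 1.31-fold (adjusted p = 0.00268) and the kinase gene Camk2d 1.13-fold (adjusted p = 0.0167). Without CardioGRKO ZT0 replicate 1, 5 of the 25 fell. Among 21 sarcomere genes Tcap rose, as above, and Actc1 fell 1.11-fold (adjusted p = 0.0341, lost in 5 alternatives with up to 0.134). In the list of 14 fetal and stress genes of cardiomyocytes, Rcan1 was the only one called. The natriuretic peptide gene Nppb had 193 to 303 CPM at ZT0 and 88.9 to 215 CPM at ZT12, with a log2 fold change of −0.56 ± 0.23 (adjusted p = 0.131). In GRflox Nppb fell by 1.43 on the log2 scale, and the difference of 0.87 did not pass the interaction test (adjusted p = 0.612).

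Insulin and PI3K signalling had 3 of 20 genes higher and 1 lower, against 4.42% and 4.75% of all tested genes. It had 1 higher without CardioGRKO ZT0 replicate 5 or after thinning. Pik3ip1, an inhibitor of PI3K, rose 1.53-fold from 38.1 to 55.2 CPM to 62.2 to 85.3 CPM (adjusted p = 3.89e-05), and the insulin receptor substrate gene Irs1 fell 1.39-fold from 65.9 to 92.7 CPM to 47.6 to 62.3 CPM (adjusted p = 0.00714). In autophagy 2 of 22 rose and none fell, where 4.42% of all tested genes rose. In GRflox 8 of the 22 rose, where 8.13% of all tested genes did, and the difference between these counts was not tested. The initiating kinase gene Ulk1 and the cargo receptor gene Sqstm1 each rose 1.28-fold (adjusted p = 0.000873 and 0.00269). Of 28 heat shock genes 2 fell: Hsf1, the heat shock transcription factor, 1.17-fold (adjusted p = 0.0302) and Chordc1, a co-chaperone of HSP90, 1.30-fold (adjusted p = 0.045). Neither passed without CardioGRKO ZT0 replicate 3, Chordc1 did not pass without ZT0 replicate 2, and over the 28 alternatives their adjusted p reached 0.0831 and 0.144. Of 3 cold-inducible genes, Cirbp rose 1.59-fold from 23.9 to 32.9 CPM to 33.8 to 52.6 CPM (adjusted p = 0.00015). Of 24 immediate early genes, which respond within minutes to stimuli and to tissue handling, Ier3 rose 1.76-fold from 18.9 to 37.9 CPM to 41.0 to 54.1 CPM (adjusted p = 0.00101). Egr1 had 39.0 to 53.0 CPM at ZT0 and 20.8 to 37.7 CPM at ZT12 without overlap, and did not pass (log2 fold change −0.75 ± 0.25, adjusted p = 0.0568). It passed in 9 of 28 alternative analyses: with no filter, a replicate block or limma-voom, in the CardioGRKO libraries alone, and without GRflox ZT0 replicate 3 or 4, GRflox ZT12 replicate 3 or 4, or CardioGRKO ZT12 replicate 4 (adjusted p down to 0.000348). In the cell cycle list 1 of 19 rose and Cdkn1a fell, and none of 17 ribosome biogenesis genes passed in edgeR, where 2 had an unadjusted p under 0.05 and DESeq2 and limma-voom each called 1.

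Marker lists show what else the tissue held, where 4.42% of all tested genes were called higher and 4.75% lower. The 8 cardiomyocyte markers summed to 90972 to 98049 CPM at ZT0 and 89647 to 103149 CPM at ZT12, and Actc1 was the only one called. Myh6, which encodes the heavy chain whose promoter drives the Cre, had 46376 to 52296 CPM at ZT0 and 49483 to 58017 CPM at ZT12. Pericyte and smooth muscle markers (8) summed to 1512 to 1798 CPM at ZT0 and 1309 to 1764 CPM at ZT12. In this list Myh11 and Tagln, contractile genes of smooth muscle, rose 1.33-fold and 1.25-fold (adjusted p = 0.017 and 0.0348), and their calls were lost in 3 and 7 of 28 alternative analyses (adjusted p up to 0.065 and 0.11), both among them without CardioGRKO ZT0 replicate 2 and without ZT12 replicate 2 or 5. Macrophage markers (7 tested of 8) summed to 289 to 377 CPM and 288 to 406 CPM and none was called in edgeR, with 1 at an unadjusted p under 0.05 and 1 called by DESeq2. Lymphocyte markers, of which 3 of 6 could be tested, summed to at most 10.7 CPM at ZT0 and 7.82 CPM at ZT12, and 2 were called lower in edgeR and DESeq2 and 0 in limma-voom. Neutrophil (2 of 4 tested), adipocyte (3 of 5), Schwann cell (3) and mesothelial markers (3) each summed to at most 10.1 CPM in any library. Atrial markers (4) summed to 102 to 436 CPM at ZT0 and 131 to 429 CPM at ZT12. In these 5 lists no gene was called in edgeR, DESeq2 or limma-voom, and none had an unadjusted p under 0.05. The 4 haemoglobin genes were listed at 0 counts in every CardioGRKO library, and the red cell enzyme gene Alas2, the 1 tested of 5, was not called in any of the 3 tools or at an unadjusted p of 0.05. Of the other markers not tested, Adipoq had at most 8 and Cd3e at most 16 counts in a CardioGRKO library.

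Set against GRflox, the day-night change in CardioGRKO involved largely the same genes in the same direction. In GRflox 2423 genes (17.3%) passed, 1139 higher (8.13%) and 1284 lower (9.17%), and 957 genes passed in both genotypes, all 957 with the same sign. These are 74.5% of the CardioGRKO calls and 39.5% of the GRflox calls. Across the 14007 genes, which are not independent replicates, the log2 fold changes of the 2 genotypes had a Pearson r of 0.69 and a Spearman rho of 0.62, and the contrasts share no library. Of the 957 genes 615 (64.3%) had the smaller absolute change in CardioGRKO, with a median absolute log2 fold change of 0.377 against 0.425. Of the 1466 genes called in GRflox alone, 1366 had the same sign in CardioGRKO and 13 were called by the interaction, and of the 327 called in CardioGRKO alone, 307 had the same sign in GRflox and 1 was called. A gene called in 1 genotype alone is therefore mostly not shown to differ between them.

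The interaction was called for 26 genes (0.186%), 9 with the more positive change in CardioGRKO (0.0643%) and 17 with the more negative (0.121%), against 839 at an unadjusted p under 0.05. DESeq2 called 69, and the count was 16 without CardioGRKO ZT12 replicate 1 and 17 without GRflox ZT0 replicate 2, GRflox ZT0 replicate 4 or GRflox ZT12 replicate 4. In 25 of the 26 the change was smaller in CardioGRKO, where 2 times cannot separate a weaker rhythm from a shifted peak. Some of these genes changed in both genotypes, as did the clock genes, Zbtb16, Rhobtb1 and Leo1 above. For others the CardioGRKO change did not pass. Pik3r1, the regulatory subunit of PI3K, stood at 110, 112, 127, 111 and 119 CPM at ZT0 and at 118, 143, 131, 116 and 141 CPM at ZT12 in CardioGRKO. These ranges overlap (log2 fold change 0.16 ± 0.0863, adjusted p = 0.295), while in GRflox the rise was 1.10 on the log2 scale and the difference was −0.94 (adjusted p = 0.000432). Gja1, which encodes the gap junction protein connexin 43 that couples cardiomyocytes, had 995 to 1134 CPM at ZT0 and 934 to 1044 CPM at ZT12 (log2 fold change −0.15 ± 0.0641, adjusted p = 0.169). In GRflox it fell by 0.82, and the difference of 0.67 passed (adjusted p = 0.000529). Foxo3, a transcription factor under insulin control, had a log2 fold change of 0.21 in CardioGRKO (adjusted p = 0.0627) and 0.90 in GRflox (difference −0.69, adjusted p = 0.00126). Its CardioGRKO libraries did not overlap between times (44.3 to 55.4 against 55.9 to 62.3 CPM), and the CardioGRKO change passed in 5 of 28 alternative analyses: upper-quartile or library-size scaling, the CardioGRKO libraries alone, and without CardioGRKO ZT0 replicate 4 or GRflox ZT12 replicate 3 (adjusted p down to 0.0229).

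Of the remaining interaction genes, Rnf144b, a ubiquitin ligase gene, had a log2 fold change of 0.10 against 0.96 in GRflox (difference −0.85, adjusted p = 0.00538). Ccrn4l, the rhythmic deadenylase gene also called nocturnin, had 0.0278 against 0.73 (difference −0.70, adjusted p = 0.0209, and up to 0.0519 without GRflox ZT12 replicate 4 or CardioGRKO ZT12 replicate 1). Fbxw7, the substrate receptor of a ubiquitin ligase, had −0.0292 against −0.52 (difference 0.49, adjusted p = 0.00608). In these 3 the CardioGRKO groups overlapped and did not pass the test. Akap1, a mitochondrial anchor of protein kinase A, and Tnfaip2 fell in CardioGRKO by 0.30 and 0.40 on the log2 scale, and by 0.63 and 0.97 in GRflox (differences 0.33 and 0.56, adjusted p = 0.021 and 0.0129). Klhdc8a fell by 0.61 against 1.29 (difference 0.67, adjusted p = 0.0397) and Leo1 by 1.08 against 1.55 (difference 0.47, adjusted p = 0.0475). Rhobtb1 rose by 1.12 against 2.02 (difference −0.89, adjusted p = 0.0209). The calls of Akap1, Klhdc8a, Leo1 and Rhobtb1 were lost in 6, 15, 19 and 4 of 27 alternative analyses, with adjusted p up to 0.063, 0.107, 0.107 and 0.0544. The exception was the zinc finger gene Zfp646, which rose 1.15-fold in CardioGRKO (29.5 to 32.9 against 35.3 to 37.2 CPM, adjusted p = 0.00466), with −0.0953 in GRflox (difference 0.29, adjusted p = 0.0465, lost in 19 of 27 alternative analyses with adjusted p up to 0.119).

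**Figure D5:**
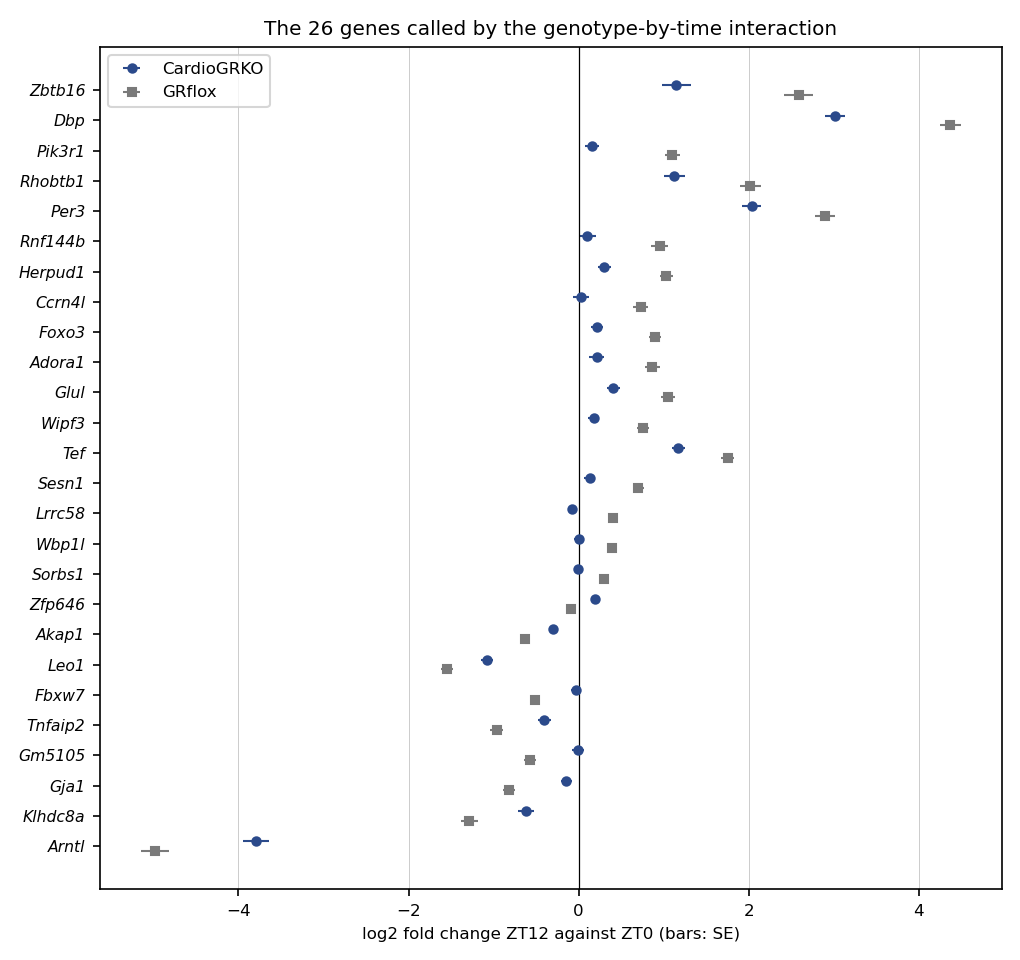
Log2 fold change from ZT0 to ZT12 (horizontal axis, bars of 1 standard error) in CardioGRKO (blue circles) and GRflox (grey squares) for the 26 genes called by the genotype-by-time interaction, ordered by the difference. In 25 genes the CardioGRKO circle lies nearer to 0, and Zfp646 is the exception.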

How the data were processed

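The deposited files hold raw counts per gene, whole numbers not normalized by the authors. The submitters' processing notes list mm10 and the tools DESeq2 1.38.3, Subread 1.5.1 with its featureCounts, and STAR 2.5.1. Per the labels, TruSeq poly(A) libraries were sequenced on a NovaSeq in paired-end reads of 75 bases. The sources used here do not give the annotation release, whether counting used strand or how it treated reads shared by gene copies, and reads of overlapping, antisense or near-identical genes can be shared or lost. Library totals ran from 5854462 to 37648421 counts, and deeper libraries measure low genes more precisely.

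Where an Entrez identifier had lines at more than 1 locus, their counts were added (24059 genes). Of these, 23973 (99.64%) matched the RefSeq table of GRCm38.p6, the source of coordinates and promoter windows. Genes passing filterByExpr of edgeR 4.0.16 in R 4.3.3 (minimum count 10, minimum total 15) were tested, 14007 in all. A group-means model of all 20 libraries with TMM factors (0.9609 to 1.04) was tested by the quasi-likelihood F-test, with Benjamini-Hochberg adjustment over all tested genes and a threshold of 0.05. The contrasts were ZT12 minus ZT0 in each genotype and their difference, the interaction. SE is the log2 fold change over the square root of F. Fold values and CPM are TMM-scaled.

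Alternatives were DESeq2 1.42.0, upper-quartile or library-size scaling, no filter, a stricter filter (50 counts in 5 libraries), limma-voom (limma 3.58.1), the CardioGRKO libraries alone, a replicate block and leaving out each library. Binomial thinning of every library to the lowest total was added after the totals were seen. On simulated counts for the CardioGRKO comparison (14007 genes) the code recovered 95 of 100 genes changed 1.5-fold and 100 of 100 changed 2-fold, with 12 false calls. The changed genes had mean counts over 50, and all genes were given the same dispersion. Recovery of low genes, or of genes with a wider spread, was therefore not measured.

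The comparison, the 27 pathway lists and 12 marker lists and the naming rule were chosen with earlier results of these data known. The rule names Nr3c1, 20 clock genes, the 12 largest rises and 12 largest falls among called genes without overlap at a mean log2 CPM of at least 1, the 8 interaction genes at each end and, for each list, its 5 genes of smallest p or fewer. Provisional names were passed over, and Foxo3 and Glul enter through their lists. Of 197 genes allowed, 107 are given with values, and a few are not reported here. Lists are described by counts and medians, with no set test. Figures were drawn with matplotlib.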

Additional observations from a re-analysis of the deposited data

Results flagged for a closer look

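In groups of 5 CardioGRKO libraries, 10 of 214 gene and group pairs (4.67%) had 1 library far from the other 4 by Dixon's test, whose critical value is 0.71 for 5 samples and which chance passes in about 1 of 20 groups. ZT0 replicate 2 was high for Per2 (20.9 CPM against 6.28 to 10.3), Rcan1 (317 against 201 to 224) and Chordc1 (88.2 against 62.3 to 65.4). ZT12 replicate 3 was low for Per1 (81.3 CPM against 111 to 122) and Per2 (62.1 against 73.6 to 76.4) and high for Kdr (252 against 170 to 189) and Angpt2 (5.13 against 2.96 to 3.34). The shallow ZT0 replicate 1 was high for Cirbp (32.9 CPM against 23.9 to 25.6) and low for Dgat2 (226 against 273 to 289). ZT0 replicate 5 was high for Nr3c1 (61.1 CPM against 51.9 to 54.5).

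The day-night change differed between genotypes by the interaction test for 19 of the genes given. The log2 change was more negative in CardioGRKO than in GRflox for Zbtb16 (−1.44), Dbp (−1.36), Pik3r1 (−0.94), Rhobtb1 (−0.89), Per3 (−0.86), Rnf144b (−0.85), Herpud1 (−0.73), Ccrn4l (−0.70), Foxo3 (−0.69), Glul (−0.64) and Tef (−0.58). It was more positive for Arntl (1.18), Klhdc8a (0.67), Gja1 (0.67), Tnfaip2 (0.56), Fbxw7 (0.49), Leo1 (0.47), Akap1 (0.33) and Zfp646 (0.29).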

How the results depend on the processing

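After thinning every library to the lowest total, 346 genes were called higher and 406 lower in CardioGRKO (697 of them among the 1284, or 54.3%) and 1481 in GRflox. The interaction called 69 genes with DESeq2. Leaving out each library in turn gave 383 to 620 genes higher and 491 to 757 lower in CardioGRKO, with both lowest counts without CardioGRKO ZT0 replicate 3, 1931 to 2504 called in GRflox and 16 to 33 by the interaction. The remaining alternatives kept these counts within 1.5 times, and a fit of the CardioGRKO libraries alone called 996 genes, 955 of them among the 1284. With library-size scaling 36% of the GRflox calls were higher, against 47% with TMM, and in CardioGRKO 54.1% against 48.2%. Within CardioGRKO, replicate numbers did not pair the times. Same-numbered ZT0 and ZT12 libraries had deviations correlated at 0.0662, −0.403, −0.106, −0.116 and 0.152. Whether replicate numbers match libraries of the 2 genotypes at the same time was not tested. Per1 at ZT0, picked after its values were seen, was lowest in replicates 1 and 4 of both genotypes. It had 29 and 25.4 CPM there in CardioGRKO, and 31 and 30.1 CPM in GRflox. With the replicate number as a block, 654 genes were higher and 705 lower in CardioGRKO, 2513 were called in GRflox and 38 by the interaction. Of 93 named genes called in CardioGRKO, 81 kept their call in all 28 other alternatives and 9 lost it after thinning (Zfp646, Hsf1, Chordc1, Plin5, Pnpla3, Fasn, Hk1, Camk2d and Angpt2). Of 14 named genes not called, 4 passed in some alternative: Egr1 in 9, Foxo3 in 5, Bhlhe40 in 1 (without CardioGRKO ZT0 replicate 2) and Atp5a1 in 1 (without CardioGRKO ZT12 replicate 2). Of 19 interaction genes 12 kept it in all 27 and 4 lost it after thinning (Arntl, Per3, Leo1 and Zfp646), and no named gene reversed. A change under about 1.5-fold in a low gene may not be detectable at the depth of the shallowest library.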

Other observations

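The 1284 called genes were not led by all libraries alike. Among the 5 ZT12 libraries, replicate 3 was the nearest to the ZT0 group in 33.4% of them (429 genes), and the other 4 were so in 13.1% to 19.1%. Among the ZT0 libraries, replicate 2 was the nearest to ZT12 in 37.5% (481 genes) and replicate 3 in 8.18%, while replicate 5 was the farthest in 36.2% (465 genes). These shares are a description of libraries that were themselves used to call the genes. Within ZT12, principal component analysis of the CardioGRKO libraries set replicates 2 and 5 (15.99 and 18.89 on the third component, 13.1% of the variance) apart from replicates 1, 3 and 4 (−13.06 to −3.34). The same replicates 2 and 5 had the lowest Arntl at ZT12, 1.68 and 1.70 CPM against 3.14 to 3.32 CPM in the other 3. They also had the highest Per3, 74.8 and 77.0 CPM against 54.8 to 59.3 CPM. In GRflox at ZT12, replicates 2 and 5 likewise had the highest Per3, 73.1 and 69.4 CPM against 55.9 to 60.4 CPM. Arntl in these GRflox libraries was 1.84 and 1.04 CPM against 1.95 to 2.03 CPM. Both genes were picked after their values were seen.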
